A study of Mus musculus with 6 samples.

Results

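The miRNAs described are miR-28a, miR-28c, miR-151 and miR-708 of the mouse, with every arm and variant listed. They were picked out by name alone, which gave 7 of 1080 listed small RNA entries, from 4 hairpins. The names themselves were chosen with earlier results of these data known. The entries are the 5p and 3p arms of mmu-miR-28a, mmu-miR-151 and mmu-miR-708 and a variant of mmu-miR-28c, written below without the mouse prefix. Those of miR-28a-5p and miR-708-5p are also variants, with the suffix R-1, read here as 1 base shorter at the 3′ end. All 6 libraries hold small RNA of the mouse neuroblastoma line N2A, also called Neuro2A. In 3 of them the cells were given si-circCpsf6, an siRNA named for the circular RNA circCpsf6, and in the other 3 a control siRNA, si-NC, each at 100 nM with a lipid reagent. The comparison asks how miRNA levels differ when circCpsf6 is targeted, and how far circCpsf6 was lowered was not analysed here.

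A miRNA hairpin is cut into a 5p and a 3p strand, and the strand that is loaded into an Argonaute protein pairs with messenger RNAs mainly through its seed, bases 2 to 8 from its 5′ end. miRNAs with the same seed can act on overlapping sets of messenger RNAs. The hairpins of miR-28, miR-151 and miR-708 are grouped as relatives by sequence, and miR-151-5p carries the core of the miR-28-5p seed further from its 5′ end, so that its own seed differs. miR-708 is known as a miRNA that is transcribed with its host gene, Tenm4 (also called Odz4), and induced with it by the transcription factor CHOP under endoplasmic reticulum stress. miR-151 lies in Ptk2, the gene of focal adhesion kinase, and has been studied in tumour cell migration. miR-28 lies in Lpp, which encodes a focal adhesion protein, and has been studied as a restraint on B cell growth.

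The mature sequences below are those of RefSeq on GRCm38.p6, with the seed in capitals, and are shown because they tell which entries share a seed. Of the 7 entries, 4 matched that table by name, without the variant suffix. The full RefSeq sequences are shown also for miR-28a-5p and miR-708-5p, which were listed as R-1 variants.
miR-28a-5p: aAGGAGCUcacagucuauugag
miR-708-5p: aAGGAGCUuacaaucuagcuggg
miR-28a-3p: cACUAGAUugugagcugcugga
miR-708-3p: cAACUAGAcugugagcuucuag

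The 5p strands of miR-28a and miR-708 have the same seed, AGGAGCU, and among 1679 mature mouse miRNAs of that table they were the 2 that carry it. Counted from 1 at the 5′ end, with the base of miR-28a-5p first, they differ by C9U, G13A, U18G, U19C, G20U and A21G, so that 16 of 22 compared positions are identical and the first 8 bases are all shared. The 3p strands have different seeds, ACUAGAU and AACUAGA, although both seeds hold ACUAGA, placed 1 base further from the 5′ end in miR-708-3p. They also share a run of 8 bases (ugugagcu) that starts at base 9 of miR-28a-3p and at base 10 of miR-708-3p. The name of a seed family thus holds for miR-28a-5p and miR-708-5p, and not for the 3p strands. The seeds of miR-151 and miR-28c were not compared here.

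Each hairpin lies in an intron of a protein-coding gene, on the strand of that gene (GENCODE M21, GRCm38, placed by hairpin name). The miR-28a hairpin is on chromosome 16 at 24827855 to 24827940, in Lpp. The miR-151 hairpin is on chromosome 15 at 73254815 to 73254882, in Ptk2. The miR-708 hairpin is on chromosome 7 at 96249424 to 96249532, in Tenm4. The miR-28c hairpin is on chromosome 15 at 53614205 to 53614279, in Samd12. They share no host gene.

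The values are the authors' normalized read numbers, rounded to whole numbers, so that read depth is unknown and no counting interval can be given. The libraries summed to between 2874209 and 3268351 with si-circCpsf6 and between 2570449 and 3045133 with si-NC. After repeated rows were merged, 1046 entries remained, of which 717 to 849 were listed above 0 with si-circCpsf6 and 815 and 840 in si-NC replicates 2 and 1. In si-NC replicate 3 the number was 558, and this library stands apart from the others. Neuronal and neuroendocrine miRNAs (miR-124, miR-9, miR-7a and miR-375) were all listed in each library, mainly as miR-7a, and summed to between 201367 and 366434 with si-circCpsf6 and between 90646 and 239795 with si-NC. Without miR-7a this group was low, as miR-124, miR-9 and miR-375 were each at 725 or below in every library. The hepatocyte miR-122 and the erythroid miR-451a and miR-144 were at 17 or below in every library. The leukocyte miR-150 was at 29 or below, while miR-142a and miR-223 were at 0. The muscle miR-1a and miR-133a summed to between 43 and 72 with si-circCpsf6 and between 49 and 132 with si-NC. The endothelial miR-126a was higher, between 4321 and 6634 with si-circCpsf6 and between 4061 and 6114 with si-NC. The 5 epithelial miRNAs of the miR-200 group summed to 62, 34 and 7 in si-circCpsf6 replicates 1, 2 and 3, against 197 and 431 in si-NC replicates 1 and 2, and the third si-NC library also lay above every si-circCpsf6 library. The part of this marker group in the results below was not tested. The fibroblast and smooth muscle miR-143 and miR-145a were abundant, with sums between 78021 and 103468 with si-circCpsf6 and between 65689 and 103012 with si-NC. The labels do not state whether replicates are separate cultures, and p-values here may therefore reflect technical spread alone.

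In these cells miR-151-5p was by far the most abundant of the 7 entries, and miR-708 was the hairpin whose listed values differed most in proportion between the groups. Both arms of miR-708 had higher means with si-circCpsf6, 3.65 times the si-NC mean for the 5p arm and 2.27 times for the 3p arm, whereas the 5 entries of miR-28a, miR-28c and miR-151 had lower means. None of the 7 passed the test over all entries. With limma on log2(value + 1), 0 of 916 tested entries (0%) had a Benjamini-Hochberg adjusted p under 0.05, the lowest being 0.0923, and 57 (6.22%) had an unadjusted p under that level, among them 2 of the 7 members. All 7 members passed the filter on low values, a mean of at least 1 across libraries, and were tested. Their median log2 change was -0.33, beside 0.086 over all tested entries, of which 515 had a higher and 401 a lower log2 value.

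**Figure D1:**
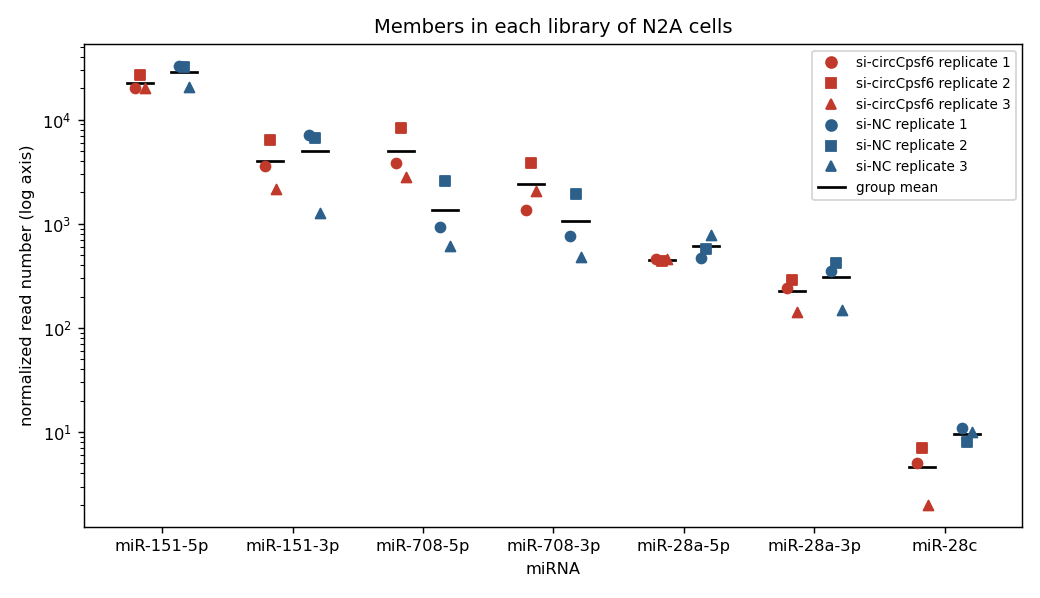
Normalized read number (log axis) of each of the 7 miRNAs in each library, with si-circCpsf6 libraries in red to the left of si-NC libraries in blue, symbols for replicates and lines for group means. The 3 red points of miR-708-5p lie above its 3 blue points, while those of miR-151-5p and miR-151-3p overlap.

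miR-708-5p was listed at 3858, 8288 and 2802 in si-circCpsf6 replicates 1, 2 and 3, against 936, 2548 and 606 in si-NC replicates 1, 2 and 3. Every si-circCpsf6 library lay above every si-NC library, with 2802 against 2548 as the closest pair, and replicate 2 was the highest of its group in both. The means were 4983 ± 2911 with si-circCpsf6 and 1363 ± 1039 with si-NC (SD, n = 3 each, as for all means given here). The log2 change, taken throughout on log2(value + 1), a scale that shrinks differences between low values, was 1.98 (SE 0.58, 95% interval 0.65 to 3.32). limma gave it an unadjusted p of 0.00873, the 22nd smallest of 916, and an adjusted p of 0.364. Over all 916 tested entries, 47 had a log2 change at least as high, miR-708-5p included. Of the 373 with a mean of 100 or more, 3 did, miR-708-5p itself and, named after their values were seen, miR-760-3p (2.32) and hsa-mir-4454-p3 (2.18). In bulk libraries such as these, more cells with a miRNA and more of it per cell cannot be told apart.

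miR-708-3p, the other strand of that hairpin, was listed at 1350, 3828 and 2051 with si-circCpsf6, against 758, 1939 and 482 with si-NC. The groups overlap, because si-circCpsf6 replicate 1 lay below si-NC replicate 2. Its means were 2410 ± 1277 with si-circCpsf6 and 1060 ± 774 with si-NC, with a log2 change of 1.30 (SE 0.56, 95% interval 0.0082 to 2.59, limma adjusted p = 0.735). With each library left out in turn the log2 change of miR-708-5p stayed between 1.53 and 2.57 and that of miR-708-3p between 0.86 and 1.86. Both were lowest without si-NC replicate 3, in which both strands were at their lowest. Without si-circCpsf6 replicate 2, in which both strands were highest, the log2 changes were nearly as low (1.54 for miR-708-5p and 0.90 for miR-708-3p).

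miR-28a-5p, which has the seed of miR-708-5p, was listed at 458, 436 and 459 with si-circCpsf6, against 469, 570 and 785 with si-NC. The si-circCpsf6 values lay close together and all just below the lowest si-NC value, while si-NC replicate 3 was the highest. The means were 451 ± 13.0 with si-circCpsf6 and 608 ± 161 with si-NC, with a log2 change of -0.40 (SE 0.31, 95% interval -1.12 to 0.32, limma adjusted p = 0.866). Without si-NC replicate 3 the log2 change was -0.20.

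miR-28a-3p was listed at 239, 290 and 142 with si-circCpsf6, against 355, 422 and 147 with si-NC. Replicate 3 was the lowest library of each group, and the groups overlap only through si-NC replicate 3. Its log2 change was -0.39 (SE 0.51, 95% interval -1.55 to 0.77, limma adjusted p = 0.945), and -0.85 without that library. It was -0.60 when si-circCpsf6 replicate 2 was left out, -0.091 when si-circCpsf6 replicate 3 was, -0.22 when si-NC replicate 1 was and -0.092 when si-NC replicate 2 was. Unlike the 5p strand, which was highest in si-NC replicate 3, the 3p strand was near its lowest there.

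miR-28c, listed as a variant read here as longer by 1 base at each end, was close to the lower limit of what is listed, at 5, 7 and 2 with si-circCpsf6, against 11, 8 and 10 with si-NC. The groups do not overlap, but 7 and 8 are the nearest values. The log2 change was -1.01 (SE 0.88, 95% interval -3.04 to 1.01, limma adjusted p = 0.884). At such low values it moved to -1.19 with a pseudocount of 0.1, to -0.63 with one of 5, and to -0.61 without si-circCpsf6 replicate 3.

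miR-151-5p was listed at 20032, 26651 and 20248 with si-circCpsf6, against 32753, 32059 and 20478 with si-NC. si-NC replicates 1 and 2 lay above every si-circCpsf6 library, while si-NC replicate 3 did not. Its means were 22310 ± 3761 with si-circCpsf6 and 28430 ± 6895 with si-NC, with a log2 change of -0.33 (SE 0.29, 95% interval -0.99 to 0.33, limma adjusted p = 0.884). The log2 change was -0.55 without si-NC replicate 3, while leaving out si-NC replicate 1 gave -0.21 and leaving out si-NC replicate 2 gave -0.23. By its mean over the 6 libraries miR-151-5p ranked 34th of the 1046 entries.

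miR-151-3p was listed at 3617, 6355 and 2166 with si-circCpsf6, against 7126, 6590 and 1270 with si-NC. The si-NC group held both the highest values and the lowest, so that the si-circCpsf6 values all lay within its range. The log2 change of -0.087 (SE 0.68, 95% interval -1.65 to 1.48, limma adjusted p = 0.992) was -0.90 without si-NC replicate 3, and leaving out si-NC replicate 1 gave 0.35. No direction can therefore be given for miR-151-3p.

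**Figure D2:**
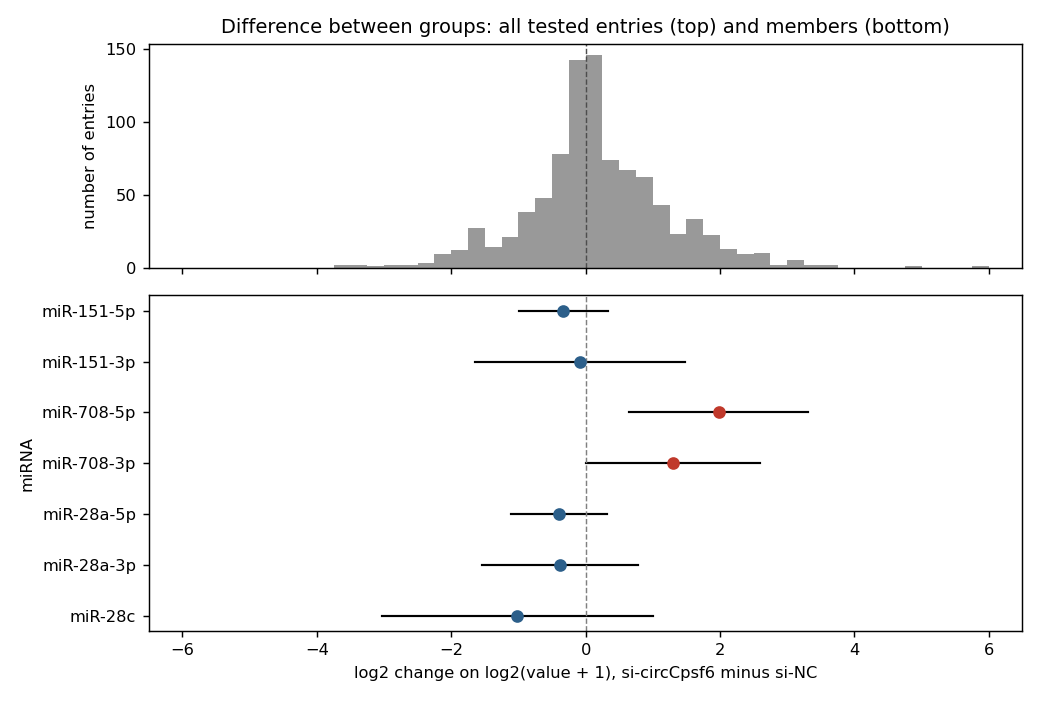
Top, number of tested entries (916) by log2 change on log2(value + 1), si-circCpsf6 minus si-NC. Bottom, log2 change of each of the 7 miRNAs (points) with its 95% interval (lines), where the intervals of miR-708-5p and miR-708-3p lie above 0 before any adjustment and the other 5 include 0.

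Counted together, 3 of the 7 members had groups that do not overlap, 1 higher with si-circCpsf6 (miR-708-5p) and 2 lower (miR-28a-5p and miR-28c). Over all tested entries 11.7% did not overlap, 6.77% higher and 4.91% lower. In the authors' deposited table the p-values of the 7 entries, which are not adjusted, ran from 0.0785 for miR-28c to 0.696 for miR-151-3p, with 0.154 for miR-708-5p and 0.208 for miR-708-3p.

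The 7 members together held 1.03%, 1.40% and 0.968% of the summed values with si-circCpsf6, against 1.39%, 1.51% and 0.925% with si-NC, so that the groups overlap. miR-151-5p alone made up 67.8%, 58.1% and 72.7% of the members' sum with si-circCpsf6, against 77.2%, 72.6% and 86.1% with si-NC. In the order of mean levels with si-circCpsf6, miR-151-5p came first, then miR-708-5p, miR-151-3p, miR-708-3p, miR-28a-5p, miR-28a-3p and miR-28c. With si-NC the order was the same except that miR-151-3p stood above miR-708-5p. The ranges of miR-708-5p and miR-151-3p overlap in both groups, as do those of miR-708-5p and miR-708-3p. The range of miR-28a-5p lay below both arms of miR-708 with si-circCpsf6, while with si-NC its 469 to 785 overlapped both. Read numbers of different miRNAs also carry the ligation preferences of the library kit, so that this order describes the libraries.

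The 5p strands of miR-708 and miR-28a, which share a seed, had a different balance in each group. For each unit of miR-28a-5p, miR-708-5p was listed at 8.42, 19.0 and 6.10 with si-circCpsf6, against 2.00, 4.47 and 0.772 with si-NC. All 3 si-circCpsf6 libraries were above all 3 si-NC libraries, and in si-NC replicate 3 alone was miR-28a-5p the more abundant of the pair. The separation was fixed beforehand, since every si-circCpsf6 library lay above every si-NC library for miR-708-5p and below for miR-28a-5p. It is therefore no separate result. Such a ratio within a library does not depend on how libraries were scaled to each other, provided that each library was scaled by a single factor. The sources used do not state whether it was. The 3p strands gave 5.65, 13.2 and 14.4 with si-circCpsf6, against 2.14, 4.59 and 3.28 with si-NC, again without overlap. These ratios rest on the values already given and were not tested on their own. How often ratios of other pairs of entries separate the groups was not computed.

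The sum of miR-28a-5p and miR-708-5p stood at 4316, 8724 and 3261 with si-circCpsf6, against 1405, 3118 and 1391 with si-NC. The lowest si-circCpsf6 sum and the highest si-NC sum were close to each other. miR-708-5p supplied 89.4%, 95.0% and 85.9% of that sum with si-circCpsf6, against 66.6%, 81.7% and 43.6% with si-NC. These shares restate the ratio of miR-708-5p to miR-28a-5p given above.

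**Figure D3:**
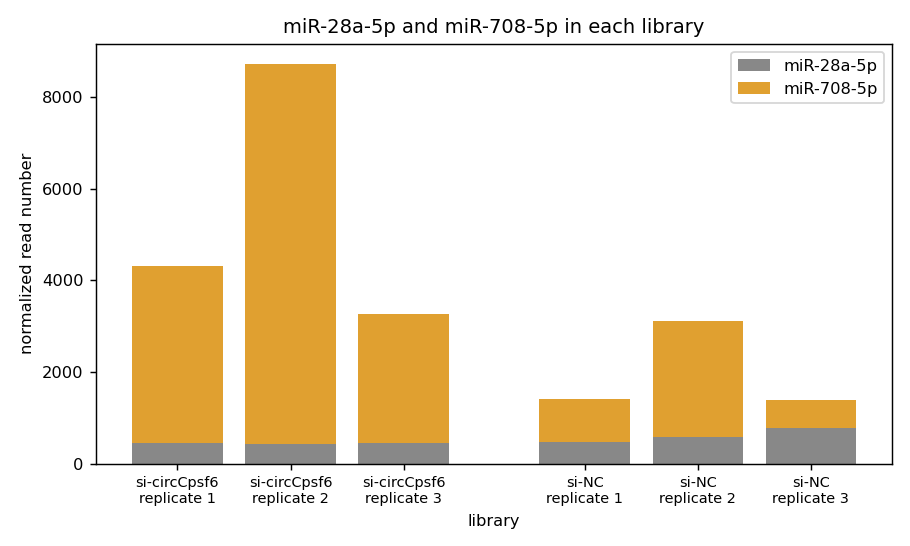
Stacked bars of the normalized read numbers of miR-28a-5p (grey) and miR-708-5p (orange), which share the seed AGGAGCU, in each library, si-circCpsf6 to the left of si-NC. The grey part lies between 436 and 785 in all 6 libraries, and the orange part between 2802 and 8288 with si-circCpsf6 and between 606 and 2548 with si-NC.

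The 5p strand was the more abundant in every library for miR-28a, miR-151 and miR-708, and the 3p strand stood at a different share of it in each hairpin. For miR-151 the 3p strand was at 18.1%, 23.8% and 10.7% of the 5p strand with si-circCpsf6, against 21.8%, 20.6% and 6.20% with si-NC. For miR-28a it was at 52.2%, 66.5% and 30.9% with si-circCpsf6, against 75.7%, 74.0% and 18.7% with si-NC. In both hairpins replicate 3 had the lowest ratio of its group. Over all 202 mouse hairpins with both arms and a summed mean of 10 or more, the median deviation of the log2 ratio in si-NC replicate 3 was -0.079, against -1.33 for miR-28a and -1.30 for miR-151.

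For miR-708 the 3p strand was at 35.0%, 46.2% and 73.2% of the 5p strand with si-circCpsf6, against 81.0%, 76.1% and 79.5% with si-NC. The si-NC ratios lay close together and all above those of si-circCpsf6, among which replicate 3 came near to them. The log2 change of the 3p to 5p ratio was -0.68 for miR-708 (SE 0.39, 95% interval -1.62 to 0.25, limma adjusted p = 0.998 over 202 hairpins), with values from -0.44 without si-circCpsf6 replicate 1 to -0.97 without si-circCpsf6 replicate 3. For miR-28a it was 0.012 (95% interval -1.61 to 1.63) and for miR-151 it was 0.24 (-1.28 to 1.77), both with an adjusted p = 0.998 by limma. No ratio passed over all 202 hairpins (0%), 6 (2.97%) having an unadjusted p under 0.05. The groups did not overlap for 1 of the 3 member hairpins, lower with si-circCpsf6. Over all hairpins 7.43% did not overlap, and 2.48% in that direction. Without si-NC replicate 3 the log2 changes for miR-28a and miR-151 were -0.65 and -0.35, so that no direction can be given for these hairpins.

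**Figure D4:**
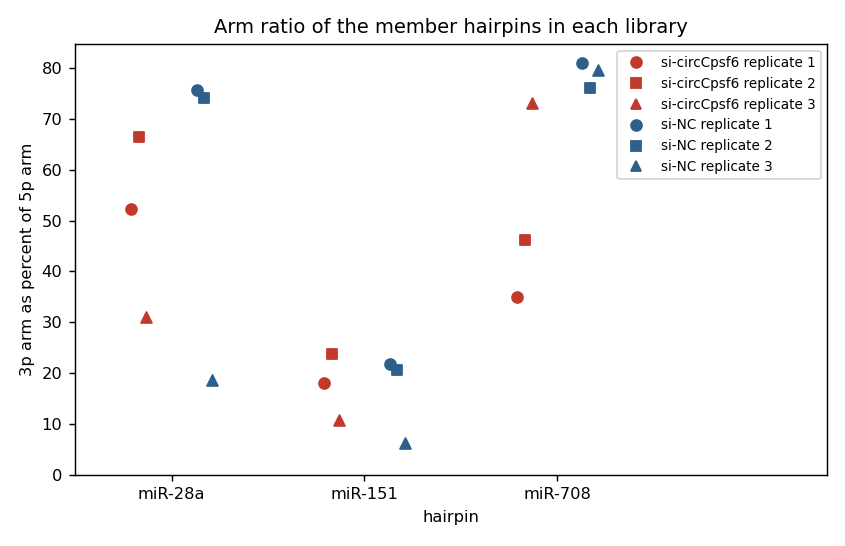
The 3p strand as a percent of the 5p strand in each library for the hairpins of miR-28a, miR-151 and miR-708, si-circCpsf6 in red to the left of si-NC in blue, with symbols for replicates. The blue points of miR-708 lie between 76.1% and 81.0% and its red points between 35.0% and 73.2%, while replicate 3 (triangles) is lowest in both groups for miR-28a and miR-151.

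The entries most like each 5p strand were sought among 367 other entries with a mean of 100 or more, by the root mean square difference of log2(value + 1) over the 6 libraries after each entry was centred on its own mean. For miR-28a-5p they were let-7a-1-3p (0.11), miR-466n-3p (0.11) and miR-669e-5p (0.13). For miR-151-5p they were miR-181c-3p (0.10), miR-30e-5p (0.10) and miR-465a-5p (0.11). For miR-708-5p they were miR-3099-3p (0.54), miR-214-3p (0.59) and miR-351-3p (0.68), which are more distant. miR-708-3p was nearer to miR-708-5p (0.46) than any of the 367. In contrast, 260 of the 367 were nearer to miR-28a-5p than its own 3p strand was (0.74), and 247 were nearer to miR-151-5p than miR-151-3p was (0.69). The distance between miR-28a-5p and miR-708-5p was 1.48.

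miR-3099-3p, the entry closest to miR-708-5p outside its hairpin, was listed at 406, 609 and 317 with si-circCpsf6, against 195, 166 and 73 with si-NC. Its groups do not overlap either, which follows largely from its choice by likeness of pattern and is no separate result. Unlike miR-708-5p, miR-3099-3p was not highest in replicate 2 of si-NC. Patterns over these 6 libraries all share the same scaling of the libraries.

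Since the member hairpins are intronic, they were set beside a list of 30 miRNAs known from introns of protein-coding genes, each as its more abundant arm. Of the 28 that were tested, 0 passed by limma, 0 had an unadjusted p under 0.05, 18 had higher and 10 lower log2 values, and the median log2 change was 0.060. The changes ran from -0.41 for miR-338-3p to 0.81 for miR-491-5p. The 4 most abundant were miR-335-5p of Mest, miR-25-3p of Mcm7, miR-26a-5p of the Ctdsp genes and miR-30e-5p of Nfyc. Their means were 45639, 34301, 31113 and 27970 with si-circCpsf6, against 40800, 37095, 34817 and 36140 with si-NC, with log2 changes of 0.20, -0.10, -0.16 and -0.36. The log2 change of miR-708-5p, 1.98, is above the range of this list and those of miR-28a-5p and miR-151-5p are within it, while that of the scarce miR-28c, -1.01, is below it.

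**Figure D5:**
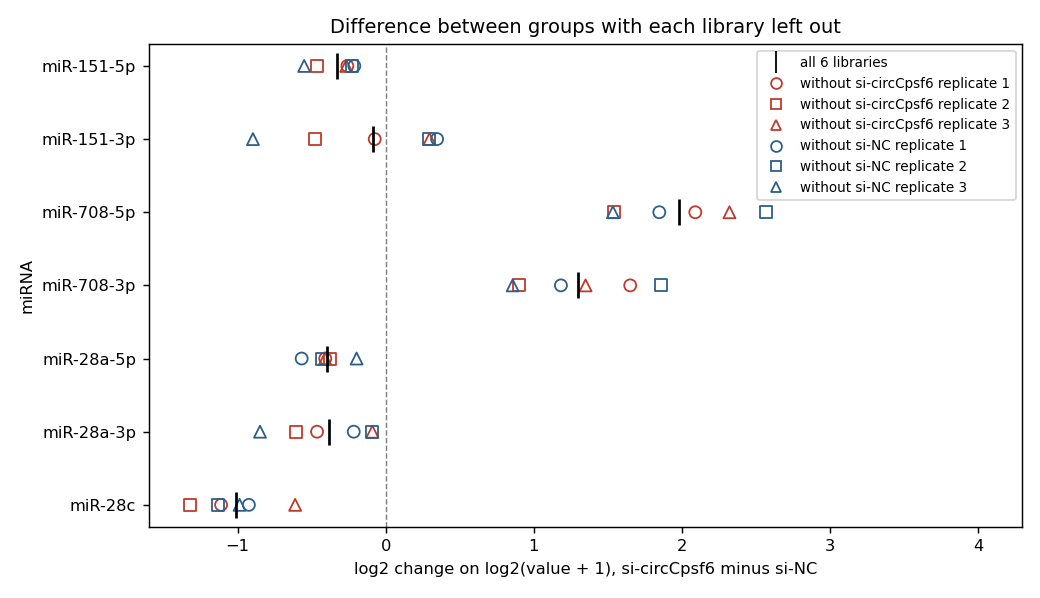
Log2 change on log2(value + 1), si-circCpsf6 minus si-NC, of each of the 7 miRNAs with all 6 libraries (black bars) and with each library left out in turn (open symbols, red for a si-circCpsf6 library and blue for a si-NC library). miR-708-5p stays between 1.53 and 2.57, while miR-151-3p runs from -0.90 to 0.35.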

How the data were processed

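Per the labels' protocols, small RNA libraries were made with the TruSeq small RNA kit from Trizol-extracted RNA of N2A cells. The deposited values are a score here, that is, read numbers which the authors normalized and rounded, as the headers state and the whole values show. The genome build was mm9, per the submitters' processing notes, while aligner, counting and normalization method are not given in the sources used. How reads were shared between near-identical miRNAs is likewise not given, so their split is uncertain.

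Samples were grouped by title. Members were found by name among mouse entries. Among 178 rows with the values of an earlier row, a row was merged if it exceeded 0 in 3 or more libraries or differed from its copy only by variant suffix. limma 3.58.1 (R 4.3.3, trended variance) was fitted to log2(value + 1) of 916 entries with a mean of 1 or more, and to the log2 3p to 5p ratio of 202 hairpins, two-sided, with Benjamini-Hochberg adjustment at 0.05, and was tested on simulated data. The steps outside R used Python 3.11.15. All members are named. The members, lists and tests were chosen with earlier results of these data known. Alternatives were other scalings, pseudocounts, filters and variances, array weights, a replicate block, mouse-named entries alone, repeated rows kept apart, and each library left out.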

Additional observations from a re-analysis of the deposited data

How the results depend on the processing

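The number of entries with an adjusted p under 0.05 by limma, 0 of 916, was 31 with array weights, which gave si-NC replicate 3 a weight of 0.146, and 0 to 4 with 1 library left out. The 4 came without si-NC replicate 3 and were let-7f-5p, let-7g-5p, let-7i-5p and PC-3p-14533_73. The number of arm ratios, 0 of 202, was 0 to 1 with 1 library left out, the 1 being miR-1934 without si-NC replicate 3. No member passed in any alternative, and the adjusted p of miR-708-5p ran from 0.0630 (array weights) to 0.787. miR-708-5p, miR-708-3p, miR-28a-5p, miR-28a-3p, miR-28c and miR-151-5p kept their direction in every alternative run. miR-28c gave no value with a mean of 10 or more required. With 1 library left out miR-151-3p ran from -0.90 to 0.35, the 3p to 5p ratio of miR-28a from -0.65 to 0.35 and that of miR-151 from -0.35 to 0.56. With array weights those ratios were -0.52 and -0.23, the opposite direction. The cause was not tested. The deviations of same-numbered libraries of the groups had correlations of 0.047, 0.48 and 0.40, and 5 of 6 libraries correlated best with their own number. Most libraries thus resembled their own number, weakly for replicate 1, and whether the numbers pair the samples was not settled. With the replicate number as a block, 0 entries and 0 arm ratios passed by limma. The limma adjusted p was then 0.185 for miR-708-5p (log2 change 1.98, SE 0.19, against 0.58 without the block). For miR-708-3p it was 0.297 (log2 change 1.30, SE 0.31, against 0.56). Read depth is unknown for every entry.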

Other observations

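Outside the mouse-named entries, 3 entries were named after relatives of these miRNAs in other species. Whether their reads come from the mouse hairpins was not tested. hsa-miR-151b_R+4 was listed at 115, 124 and 112 with si-circCpsf6, against 178, 176 and 139 with si-NC, without overlap between the groups (log2 change -0.48, SE 0.39, limma adjusted p = 0.876). Over all tested entries 11.7% did not overlap, 4.91% in that direction. cja-miR-151_R+2 was listed at 26, 41 and 62 with si-circCpsf6, against 33, 41 and 42 with si-NC. oga-miR-28b_R+3 was listed at 0, 3 and 0 with si-circCpsf6, against 5, 5 and 0 with si-NC.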
